A study of Mus musculus with 3 samples.

Results

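Intronic and intergenic peaks of a Par-4 ChIP-Seq experiment are described here by the repeat sequence they lie in. Members were the peaks that HOMER, the annotation program, placed in an intron or between genes, except those whose nearest gene was Cpm, Cpsf6, Lyz1, Lyz2 or Slc35e3. They numbered 230 of 373 peaks in all, of which 80 were intronic and 150 intergenic. Each was classed by the repeat copy that HOMER named in its detailed annotation: 137 members had a repeat name, and 93 had none and are called no-repeat members. HOMER annotates a peak by its centre, so a no-repeat peak may still touch a repeat at its edge. The remaining peaks were 54 promoter-TSS peaks (TSS, transcription start site), 13 intronic or intergenic peaks nearest to the 5 genes left out, and 76 peaks in exons, UTRs, termination sites, non-coding transcripts or without annotation, 26 of which had no annotation.

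The chromatin came from 3T3-L1 cells, a mouse fibroblast-like line of committed preadipocytes, which were cultured in serum-containing medium, given no treatment and not differentiated. It was precipitated with an antibody labelled Par-4 N-terminal. There was a single condition, with 3 samples labelled as its replicates and 1 peak list each, and libraries of input chromatin were not analysed here. For replicate 2 the file header names library 3 of the cell line. That of replicate 3 names the undetermined reads of the run, which were assigned to no library, so that it need not be independent of the others. It is called the undetermined-reads list (U list) here, and shares, overlaps and common regions are given with and without it. The members numbered 133 of 213 peaks in replicate 1, 35 of 55 in replicate 2, and 62 of 105 in the U list. Read counts are not in the lists, so depth is unknown, and there are no expression values against which the cell type could be checked. Nothing in the labels says that the samples came from separate cultures, and neighbouring peaks are not independent, so the intervals and p-values below cover counting error only.

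Par-4 (gene symbol Pawr) is a protein with a leucine zipper that acts in the nucleus as a transcriptional co-regulator through other DNA-binding proteins, and it was studied in these cells to find genes it may regulate in the adipocyte lineage. Much of the mouse genome outside exons is repeat sequence. LINE and SINE elements are retrotransposons copied through RNA, the LTR class holds endogenous retroviruses, and DNA elements moved by excision. Major satellite (GSAT_MM) is the tandem repeat of mouse pericentromeric heterochromatin, most of which is collapsed or missing in the assembled genome. The rRNA class holds scattered copies that resemble the large (LSU) or small (SSU) subunit ribosomal RNA; their repeat names end in Hsa because the library entry is the human sequence.

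The sequence under a peak could be shown for members that reach an annotated promoter window, taken as the 300 bases from 250 before to 50 after a RefSeq gene start (GRCm38.p6, the coordinates of mm10). Of the 230 members, 2 did so, both of replicate 1, both no-repeat and both in a CpG island, which is a stretch of DNA rich in CG pairs that often marks a promoter. They are shown because no other member reached such a window. This depends on the RefSeq starts used. By HOMER's distance other members lay nearer to a TSS, such as that of Sfi1 (134 bp, with a peak 318 bp wide, against 315 bp for Mdm2). The Mdm2 window lies at chr10:117710709-117711008 on the minus strand, under the peak chr10:117709922-117710965. The window of Gm40371, a predicted gene, lies at chr6:47651271-47651570 on the minus strand, under the peak chr6:47651225-47651471, whose nearest gene by HOMER was Rn4.5s. Both are printed 5′ to 3′ on the gene's strand, with the bases under the peak in capitals.
Mdm2: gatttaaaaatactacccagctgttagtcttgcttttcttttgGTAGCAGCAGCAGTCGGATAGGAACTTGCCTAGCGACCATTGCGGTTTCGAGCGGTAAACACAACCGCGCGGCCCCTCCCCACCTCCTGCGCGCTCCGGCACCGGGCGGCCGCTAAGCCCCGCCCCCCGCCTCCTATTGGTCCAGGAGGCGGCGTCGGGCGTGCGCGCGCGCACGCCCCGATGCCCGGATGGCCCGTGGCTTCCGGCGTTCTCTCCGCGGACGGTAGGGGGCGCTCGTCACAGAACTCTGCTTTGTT
Gm40371: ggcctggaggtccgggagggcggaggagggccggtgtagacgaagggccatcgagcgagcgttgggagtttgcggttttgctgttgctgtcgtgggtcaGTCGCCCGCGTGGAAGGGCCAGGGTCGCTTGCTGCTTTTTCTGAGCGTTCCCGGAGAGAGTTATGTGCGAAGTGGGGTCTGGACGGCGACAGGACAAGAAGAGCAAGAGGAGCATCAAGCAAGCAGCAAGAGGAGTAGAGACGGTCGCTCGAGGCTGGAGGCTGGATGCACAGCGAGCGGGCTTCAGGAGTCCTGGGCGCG
The Mdm2 peak covered 257 of the 300 bases. Its window held 35 CG pairs and was 64.7% G or C, and 6.95% of the 32851 windows of this length held as many CG pairs. The Gm40371 window had 201 bases under the peak, 25 CG pairs and 63.3% G or C, and 18.4% of windows held as many. The median window held 7 CG pairs. A second, overlapping window of Gm40371 lay under the same peak.

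Over the 3 lists pooled, satellite copies held 51 members and copies of rRNA 25, after 93 with no repeat (the bar plot of member counts). In replicate 1 alone LTR copies outnumbered rRNA copies by 13 to 12, and in replicate 2 satellite and no-repeat members were equal in number. Satellite copies held 24 members of replicate 1 (18.0%, exact binomial 95% interval 11.9% to 25.6%), 12 of replicate 2 (34.3%, 19.1% to 52.2%) and 15 of the U list (24.2%, 14.2% to 36.7%). Copies of rRNA held 12 (9.02%), 7 (20%) and 6 (9.68%) members in the same order of lists. The retrotransposon classes each held under 10% of the members of every list. LINE copies had 9, 2 and 5 members, SINE copies 10, 1 and 4, and LTR copies 13, 1 and 5. Simple repeats had 5, 0 and 3 members; the 0 of 35 in replicate 2 has an exact upper limit of 10.0%. The list labelled replicate 3 also had 1 member in a DNA element (URR1A) and 1 in an RMER1C copy of the class Other, and replicate 1 had 1 in G-rich low-complexity sequence. No-repeat members numbered 59 (44.4%), 12 (34.3%) and 22 (35.5%).

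**Figure D1:**
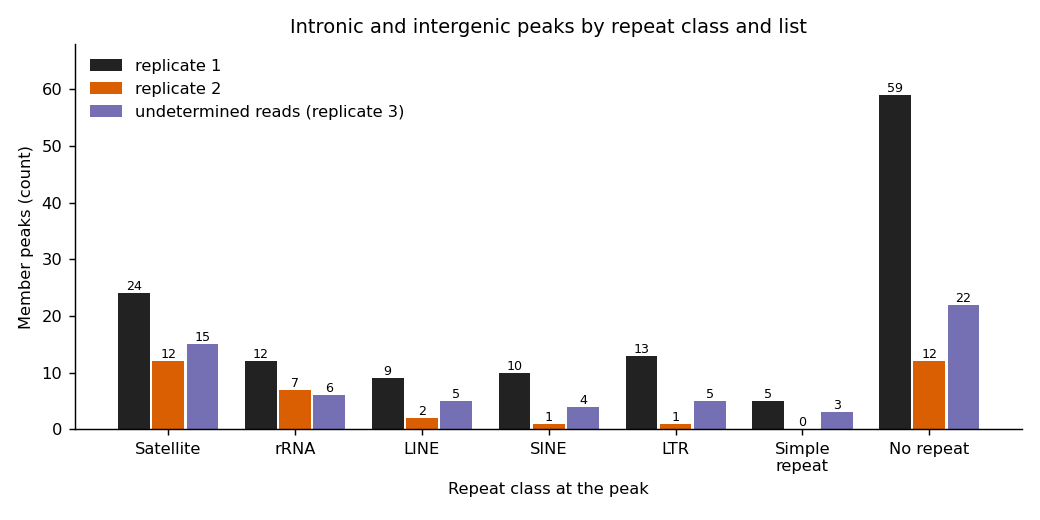
Number of intronic and intergenic peaks (vertical axis) in each repeat class (horizontal axis), with 1 bar per peak list; the classes with 1 member are not drawn. No-repeat members form the tallest bars of replicate 1 (59) and the U list (22), and in replicate 2 satellite and no-repeat members are equal at 12.

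Averaged over the 3 lists, the share was 25.5% ± 8.20 for satellite, 12.9% ± 6.16 for rRNA, 6.85% ± 1.18 for LINE, 5.61% ± 2.44 for SINE, 6.90% ± 3.60 for LTR, 2.87% ± 2.54 for simple repeats and 38.0% ± 5.50 for no repeat (SD, n = 3 lists). Without the U list the means were 26.2% for satellite, 14.5% for rRNA, 6.24% for LINE, 5.19% for SINE, 6.32% for LTR, 1.88% for simple repeats and 39.3% for no repeat (n = 2 lists). The satellite share of replicate 2 was higher than that of replicate 1, but the intervals of the lists overlapped. Of 21 comparisons of a class share between lists, 0 passed a Benjamini-Hochberg adjusted p of 0.05 and 0 had an unadjusted p under 0.05 (two-sided Fisher's exact test, lowest adjusted p = 0.818). At these counts, differences in class share between the lists were not detectable. The lists also share regions, so the sides of a comparison are not independent and equal shares are not shown. The share of LINE, LTR and SINE copies in the genome was not used here, so no class can be called over-represented.

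Of the 51 satellite members, 47 lay between genes, and 42 were named GSAT_MM and 9 SYNREP_MM, another mouse satellite. The intronic ones were in Chl1 and Cdk5rap2. The highest was nearest to the non-coding gene 4933422A05Rik, in GSAT_MM at chr9:35305155-35305579 in replicate 1, with scores of 1546, 614 and 980 in replicate 1, replicate 2 and the U list. The score comes from the peak caller MACS2, which writes a −log10 p or q multiplied by 10. Scores can be ranked within a list but not set on one scale between lists, and these ranked 1, 2 and 1. The highest of replicate 2 (rank 1) lay far from any gene, 1199125 bp from the TSS of Lrrc4c in replicate 1, which encodes a synaptic netrin-G ligand. Its 3 peaks scored 858, 996 and 856 (ranks 4, 1 and 2) and were 1147, 874 and 1083 bp wide, the widest member of each list.

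On the same chromosome, chr2:98662251-98662937 carried a second satellite region near Lrrc4c, with scores of 472, 251 and 246. HOMER named it SYNREP_MM in replicate 1 and the U list, and GSAT_MM in replicate 2, whose peak was 246 bp wide against 687 bp in replicate 1. The SYNREP_MM regions in intron sequence of Chl1, a neural cell adhesion molecule, and upstream of Pak3, a p21-activated kinase on chromosome X, were also in all 3 lists. The scores were 589, 154 and 242 at Chl1 and 465, 96 and 184 at Pak3. The remaining SYNREP_MM member, nearest to Dpy19l1, was in replicate 1 (score 212) and overlapped no other peak.

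Near Mir101c, the start of the assembled sequence of chromosome 9 carried 9 satellite members of replicate 1 within 36.2 kb, from chr9:3000001 to 3036174, 4 of replicate 2 and 3 of the U list. In replicate 1 their scores were 140 at the lowest, 188 at the median and 905 at the highest. The highest region, chr9:3025417-3025649, scored 905, 432 and 462 over the 3 lists. Of the 9 members of replicate 1, 4 overlapped another list, and of the 4 of replicate 2, 2 did. The 2 members of replicate 2 at chr9:3002107-3002237 and chr9:3002458-3002594 had no partner, so peak positions within this array differed in part between lists. Near Gm5458 on chromosome 14, 4 satellite members of replicate 1 lay within 3.17 kb, the highest with scores of 766, 364 and 453 over the 3 lists. On an unplaced contig, near the pseudogene Pisd-ps3, there were 4 satellite members in replicate 1, 1 in replicate 2 and 4 in the U list. Of these, the region common to the 3 lists scored 354, 276 and 337, with starts and ends that differed by 2 bp at most. No satellite member lay on chromosome 10, which held 46 of the 230 members.

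Of the 25 rRNA members, 14 were intronic, 23 were named LSU-rRNA_Hsa and 2 SSU-rRNA_Hsa. They merged into 13 regions, of which 3 were in all lists and 6 in 2 lists. The 3 lay upstream of Pex2, a peroxisome biogenesis factor, in an intron of Filip1l, a filamin-A-interacting protein, and in an intron of Cdk8, the kinase of the Mediator complex. The scores were 735, 198 and 114 near Pex2 (chr3:5860560-5860839 in replicate 1), 497, 125 and 144 in Filip1l (chr16:57391422-57391732) and 452, 82 and 129 in Cdk8 (chr5:146260929-146261414). Replicates 1 and 2 shared 4 more, among them those near Igf2bp3, an RNA-binding protein (209 and 102), in an intron of Zc3h7a whose nearest TSS was that of Txndc11 (282 and 111), and the SSU copy near Gm8579 (460 and 135). Replicate 1 and the U list shared 2 others. These were near Axin2, an inhibitor of Wnt signalling (664 and 231), and in an intron of Jarid2, a cofactor of the Polycomb complex PRC2, where the nearest TSS was that of Dtnbp1 (139 and 127). The members without a partner were a second Jarid2 peak (score 124) and peaks near Hic2 (98) and Apbb1ip (92) in replicate 1, and one in Il31ra (83) in the U list.

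Overlap with another list was more frequent in satellite and rRNA members than in no-repeat members. Input chromatin was not analysed. Whether copy number or mappability of these repeats moves with their overlap or score was not tested. An overlap of 1 bp with any peak of another list, whatever its annotation, was counted. Over all peaks of a list this came to 26.8% for replicate 1, 70.9% for replicate 2 and 40% for the U list, and over the members it was 40 of 133 (30.1%), 27 of 35 (77.1%) and 29 of 62 (46.8%). In replicate 1, 15 of 24 satellite members overlapped (62.5%, 40.6% to 81.2%), against 10 of 59 no-repeat members (16.9%, 8.44% to 29.0%; Fisher's exact test, two-sided, with p adjusted over 12 comparisons: adjusted p = 0.000677). For rRNA it was 9 of 12 members (75%, 42.8% to 94.5%; exact test against no repeat, adjusted p = 0.000677). In the U list all 15 satellite members overlapped (lower limit 78.2%), against 6 of 22 no-repeat members (27.3%, 10.7% to 50.2%; exact test, adjusted p = 7.28e-05). These were the 3 comparisons past the threshold. The 2 for satellite count shared regions from both sides, so they are not independent. Between replicate 1 and the U list alone, 14 of 24 and 15 of 15 satellite members overlapped.

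The remaining satellite and rRNA comparisons had the same direction without passing. In replicate 2, 10 of 12 satellite members (83.3%; exact test, adjusted p = 0.386) and 7 of 7 rRNA members (exact test, adjusted p = 0.105) overlapped, against 6 of 12 no-repeat members. In the U list, 5 of 6 rRNA members overlapped (83.3%; exact test, adjusted p = 0.0662). No difference between a retrotransposon or simple-repeat class and the no-repeat members passed: in replicate 1, 2 of 9 LINE, 1 of 10 SINE, 1 of 13 LTR and 1 of 5 simple-repeat members overlapped, and in the U list, 0 of 5 LINE and 1 of 5 LTR members (exact tests, lowest adjusted p = 0.901). LINE, SINE and LTR members of replicate 1 together overlapped in 4 of 32 cases (12.5%, 3.51% to 29.0%). The 4 such members of replicate 2 all overlapped replicate 1.

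Without the U list, 10 of 24 satellite members (41.7%) and 7 of 12 rRNA members (58.3%) of replicate 1 overlapped replicate 2, against 7 of 59 no-repeat members (11.9%), with adjusted p = 0.0211 for satellite and 0.00976 for rRNA (exact tests). Without replicate 2, the rRNA difference in replicate 1 no longer passed (exact test, adjusted p = 0.0530). The results changed with a filter on score. When peaks under the median score of the list were dropped, 15 of 24 satellite members of replicate 1 overlapped, against 9 of 24 no-repeat members (37.5%; exact test, adjusted p = 0.395), and 9 of 10 rRNA members (90%; exact test, adjusted p = 0.0632). In the U list it was 14 of 14 satellite members against 5 of 8 no-repeat members (exact test, adjusted p = 0.145). None of the 3 comparisons passed with this filter. Before adjustment, p was 0.148 for satellite and 0.00790 for rRNA in replicate 1, and 0.0364 for satellite in the U list (exact tests). The filter kept all 24 satellite members of replicate 1 and 24 of its 59 no-repeat members. With fewer peaks compared, a loss of counts and a part of score cannot be told apart. In replicate 2 the direction turned, with 9 of 11 satellite members (81.8%) against 2 of 2 no-repeat members.

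**Figure D2:**
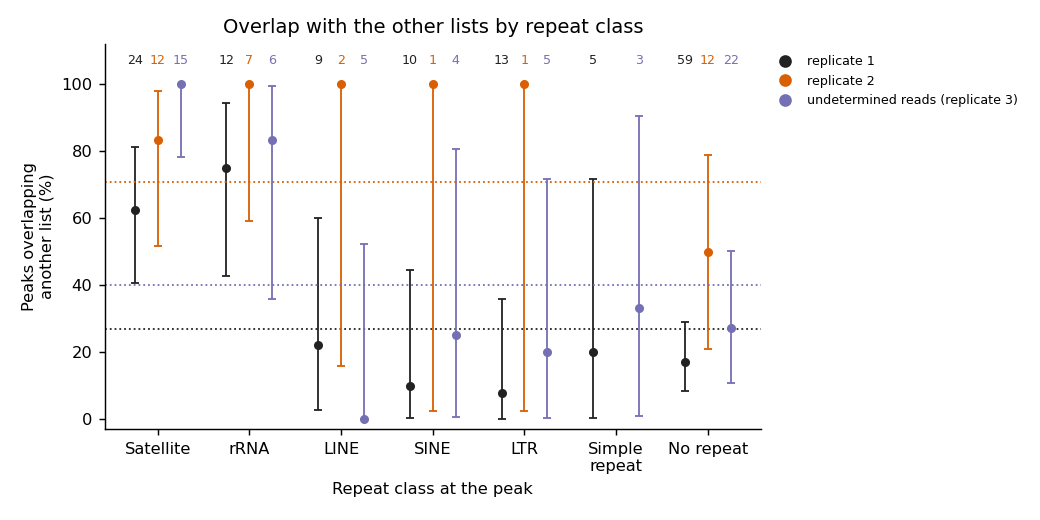
Share of members that overlap a peak of another list by at least 1 bp (vertical axis, %) by repeat class (horizontal axis), with exact binomial 95% intervals as bars, the number of members above each point, and dotted lines for the share over all peaks of each list (26.8%, 70.9% and 40%). Satellite and rRNA points of replicate 1 (62.5% and 75%) and of the U list (100% and 83.3%) lie above their dotted lines.

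Merging overlapping members gave 174 regions, of which 135 were in 1 list, 23 in 2 lists and 16 in all 3. Of the 39 regions in more than 1 list, 37 had the same repeat class in each list and 36 the same repeat name. Regions in more than 1 list were 15 of 26 satellite regions (57.7%), 9 of 13 rRNA regions (69.2%), 2 of 14 LINE, 1 of 13 SINE, 1 of 17 LTR, 1 of 7 simple-repeat and 8 of 80 no-repeat regions (10%). The 2 regions of mixed class were near Tmem125, where the peak centre lay in G-rich sequence in replicate 1 and in no repeat in the U list, and in E030030I06Rik, where it lay in no repeat in replicate 1 and in a B1_Mus1 SINE in the U list. Where a region was in both, the peak of replicate 1 was wider than that of replicate 2 in 26 of 27 regions, and wider than that of the U list in 25 of 28; with depth unknown, its part in this was not tested. Over the 9 satellite regions in all lists, the starts differed by 10 bp at the median (2 to 289 bp) and the ends by 37 bp (2 to 444 bp), so that this class held both the closest and the widest spreads. In the 3 rRNA regions the starts differed by 75 to 141 bp and the ends by 72 to 119 bp, and in the 4 others by 23 to 96 bp and 19 to 78 bp. Without the U list there were 141 regions, of which 27 were common to replicates 1 and 2: 10 of 26 satellite (38.5%), 7 of 12 rRNA (58.3%), 2 of 9 LINE, 1 of 10 SINE, 1 of 13 LTR, 0 of 5 simple-repeat and 6 of 65 no-repeat regions (9.23%). In the 10 satellite regions the starts differed by 8 bp at the median (1 to 289 bp) and the ends by 21.5 bp (0 to 444 bp).

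Satellite members also ranked high by score. In replicate 1 all 24 lay above the median score of the list, 110, against 23 of 59 no-repeat members (39.0%; two-sided Fisher's exact test with p adjusted over the 36 comparisons of score, width and distance: adjusted p = 1.6e-06). In replicate 2 it was 11 of 12 (91.7%) against 2 of 12 (16.7%; exact test, adjusted p = 0.0116), and in the U list it was 13 of 15 (86.7%) against 8 of 22 (36.4%; exact test, adjusted p = 0.0370). Many satellite peaks were neighbours, so these p-values overstate the evidence. With peaks of a class within 10 kb counted once, replicate 1 had 11 of 11 against 20 of 51 (exact test, adjusted p = 0.0109). Replicate 2 had 7 of 8 against 2 of 12, and the U list 9 of 10 against 8 of 22 (exact tests, adjusted p = 0.0376 each). That setting keeps the highest-scoring neighbour, so it selects by score. The median satellite scores were 240.5, 202.5 and 184 in replicate 1, replicate 2 and the U list, and the no-repeat medians were 102, 82.5 and 88. For rRNA members, 10 of 12, 5 of 7 and 5 of 6 lay above the median of their list, and these differences from the no-repeat members did not pass (exact tests, adjusted p = 0.0648, 0.162 and 0.207). Their median scores were 250.5, 111 and 128. LINE, SINE and LTR medians lay between 66 and 120 in every list. Among the 10 highest peaks of a list, members held 8 places in replicate 1 (5 satellite, 2 rRNA and 1 no-repeat), 8 in replicate 2 (6, 1 and 1) and 6 in the U list (5, 0 and 1), and no LINE, SINE or LTR copy was among them. The no-repeat peak in all these cases was the one near Ly6c2. Over whole lists, members were 133 of 213, 35 of 55 and 62 of 105 peaks. LINE, SINE and LTR members were 32, 4 and 14 of these peaks, so few would be looked for among 10 places.

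Score and overlap went together within classes as well. In replicate 1 the satellite members that overlapped another list had a median score of 392 (148 to 1546), against 188 (111 to 242) in the 9 that did not. The no-repeat members that overlapped had a median of 222 (78 to 798), against 96 (52 to 221) in the 49 that did not. Whether the repeat class adds to overlap beyond score was not tested, and the filter at the median score above leaves too few peaks to decide it.

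**Figure D3:**
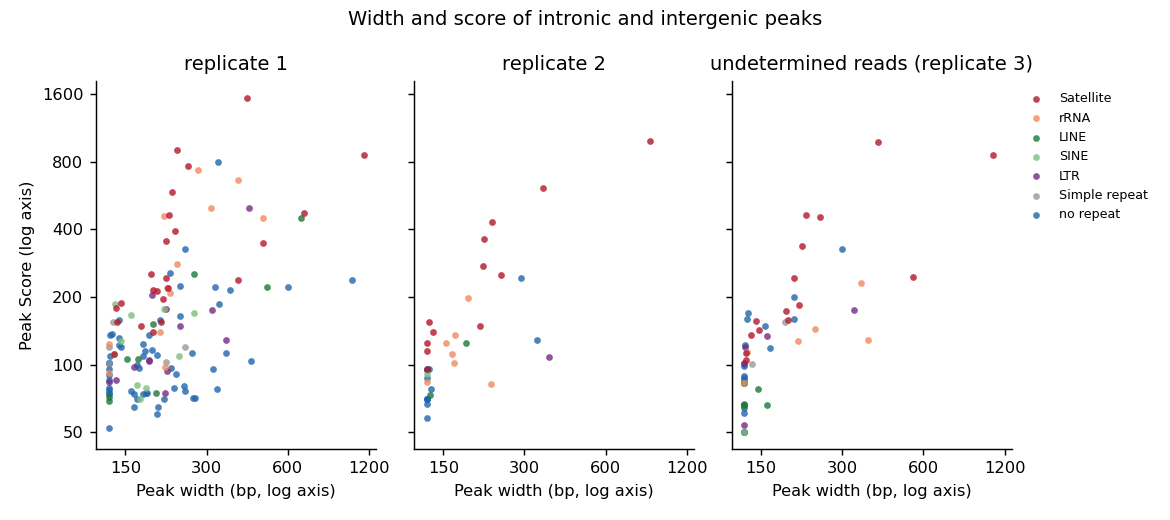
Peak Score (vertical axis, log scale) against peak width in bp (horizontal axis, log scale), 1 point per member, coloured by repeat class, with 1 panel per list. Satellite peaks reach the highest scores of each panel (1546, 996 and 980), and many no-repeat peaks of replicate 2 and the U list stand at the lowest width, 130 bp. The classes with 1 member are not drawn.

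Width differed less. The narrowest peak of every list was 130 bp, and 18 members of replicate 1 (13.5%), 12 of replicate 2 (34.3%) and 27 of the U list (43.5%) had exactly this width. Satellite members at this width numbered 0, 2 and 0, and no-repeat members 11, 8 and 14. All 4 SINE members of the U list were 130 bp wide. The median widths were 213, 208 and 199 bp for satellite, 216.5, 164 and 221.5 bp for rRNA, 190, 158 and 130 bp for LINE, 167.5, 130 and 130 bp for SINE, and 181, 130 and 130 bp for no-repeat members, in replicate 1, replicate 2 and the U list. Of 12 comparisons of the share wider than the list's median width, 0 passed (two-sided Fisher's exact test, lowest adjusted p = 0.0564), and 4 had an unadjusted p under 0.05. The nearest was rRNA in replicate 2, with 6 of 7 members wider than 140 bp against 2 of 12. It passed without chromosome 10, along with satellite and rRNA of replicate 1 (exact tests, adjusted p = 0.0329, 0.0387 and 0.0387). When peaks of a class within 10 kb were counted once, keeping the highest-scoring one, 4 comparisons passed. At minimum width the scores of the U list fell on few values: 7 of its 27 such members scored 83 and 6 scored 66.

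Satellite, rRNA, LINE and no-repeat members had a median distance over 10 kb to the nearest TSS in each list (the plot of distances). For LINE it was 39764, 47386 and 65780 bp in replicate 1, replicate 2 and the U list. Simple repeats had 60249 bp in replicate 1 and 131040 bp in the U list. Medians under 10 kb were those of LTR in replicate 2 (2038 bp, 1 member) and the U list (8939 bp), and of SINE in the U list (8787.5 bp). The median absolute distance was 38339, 40213.5 and 38633 bp for satellite, 34110.5, 29932 and 64875 bp for rRNA, and 19836, 38789.5 and 29196 bp for no-repeat members, in replicate 1, replicate 2 and the U list. All 9 LINE members of replicate 1 lay farther than the list's median distance of 16580 bp, against 34 of 59 no-repeat members (57.6%), and this did not pass (exact test, adjusted p = 0.0956). In all, 0 of 12 distance comparisons passed, and that one had an unadjusted p under 0.05. For 19 of the 80 intronic members the gene that holds the intron was not the gene with the nearest TSS, as at Brox, Dtnbp1 and Txndc11, so the nearest gene is given only as a position.

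**Figure D4:**
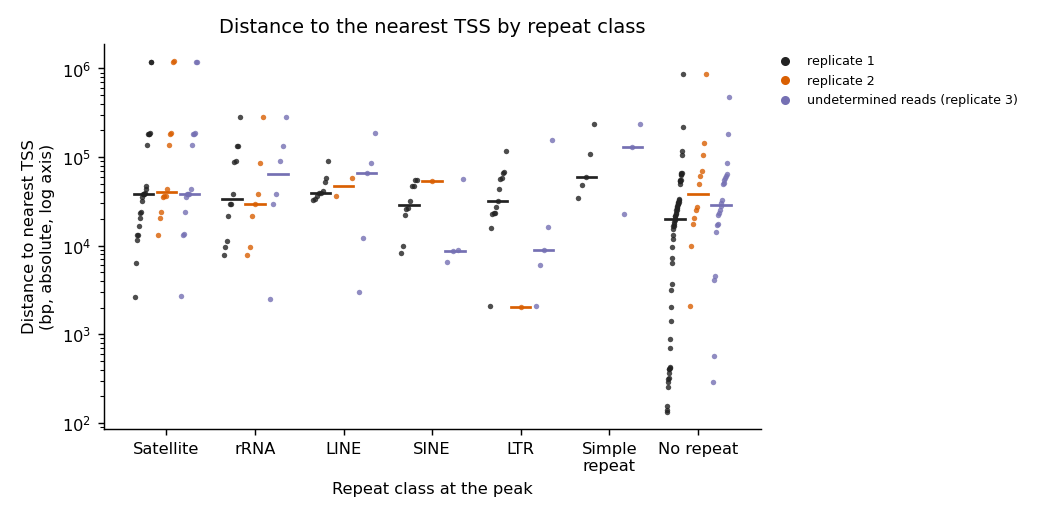
Absolute distance from the peak to the nearest TSS in bp (vertical axis, log scale) by repeat class (horizontal axis), 1 point per member, with a line at the median of each list. The points under 1 kb are 16 no-repeat members, 14 of replicate 1 and 2 of the U list.

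The LTR and LINE copies with the highest scores were single places. In the first intron of Aida, an axin-interacting protein, an RLTR33 copy of the ERVK family at chr1:183299147-183299586 (all 3 peaks merged) carried peaks of 500, 108 and 175 in replicate 1, replicate 2 and the U list, with the TSS of Brox 2077, 2038 and 2091 bp away. It was the only LINE, SINE or LTR region found in all 3 lists. Near Myf5, a myogenic transcription factor, an Lx4B copy of L1 had scores of 449 in replicate 1 and 125 in replicate 2, and widths of 673 and 182 bp. The other shared retrotransposon regions were an L1Md_F copy upstream of Lin7a, which encodes a polarity scaffold protein (254 and 73), and a B4A SINE upstream of the non-coding gene Ifngas1 (177 and 91), both in replicates 1 and 2. The third highest LINE peak of replicate 1 was an L1_Mur2 copy upstream of Lin7a (222). After the Aida copy, the highest LTR peaks of that list were an ORR1B1 copy upstream of Lin7a (204) and an MTC copy upstream of Ifngas1 (176). Its highest SINE peaks were a B1_Mus1 copy near Ly6c2 (187), the Ifngas1 copy, and a B4A copy upstream of Lin7a (169). In the U list the LTR copies after that of Aida were an MTC copy upstream of Mdm2 (134) and an MTE2b copy near Ddhd1 (120). Its LINE peaks did not exceed 83, near 2610005L07Rik, followed by an Lx8b copy in Fer1l4 (78), and its SINE peaks did not exceed 83 either, in E030030I06Rik and near Erbin.

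By family, 15 of 16 LINE members were L1 and 1 was L2. The LTR members were 10 ERVL-MaLR, 6 ERVK, 2 ERVL and 1 ERV1, and the SINE members 6 B2, 5 B4 and 4 Alu, the family name under which mouse B1 copies are filed. Names beginning L1Md, which mark younger mouse L1 elements, occurred in 4 members, 2 in replicate 1, 1 in replicate 2 and 1 in the U list. Intracisternal A-particle (IAP) copies, a young and active ERVK group, occurred in none of the 230 members. The simple repeats were short tandem motifs. The highest were (CAGA)n near Gm14496 (154) and (CTGTG)n near Tcp10c and (TGGA)n near Gm25018 (120 each) in replicate 1, and (GAATG)n near Gm17644 (154) and (CGGAA)n near Pou4f1 (101) in the U list. The (CCCA)n copy near 1010001N08Rik, with scores of 103 and 66 in these lists, was the only simple repeat they shared.

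Retrotransposon members of replicate 1 crowded on chromosome 10. Of its 32 LINE, SINE and LTR members, 21 were there, against 16 of its 59 no-repeat members, and among LTR copies it was 11 of 13. In replicate 2 it was 3 of 4 LINE, SINE and LTR members, and in the U list it was 2 of 14. A run of 11 members over 42.9 kb upstream of Lin7a, chr10:107213087-107255985, lay wholly in repeats in replicate 1: 3 in LINE, 1 in SINE and 7 in LTR copies, and none outside a repeat. Their scores were 75 at the lowest, 105 at the median and 254 at the highest, and 1 of them overlapped another list, the L1Md_F copy 58610 bp upstream. For this run and those below, the share of all peaks of replicate 1 that overlapped another list was 26.8%. The satellite runs of replicate 1 near Mir101c (9 members) and Gm5458 (4) also lay wholly in repeats, and others were mixed. Runs count members only, so peaks nearest to the 5 genes left out are not in them. Near Gm32141, 5 of 10 members over 99.9 kb had no repeat, around Mdm2 and Nup107 it was 7 of 8 over 115 kb, and near Cwc22 and Zfp385b on chromosome 2 it was 4 of 7 over 124 kb, of which 0 overlapped another list. Whether copy number of these segments in 3T3-L1 cells, or mappability, moves with these runs was not tested.

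**Figure D5:**
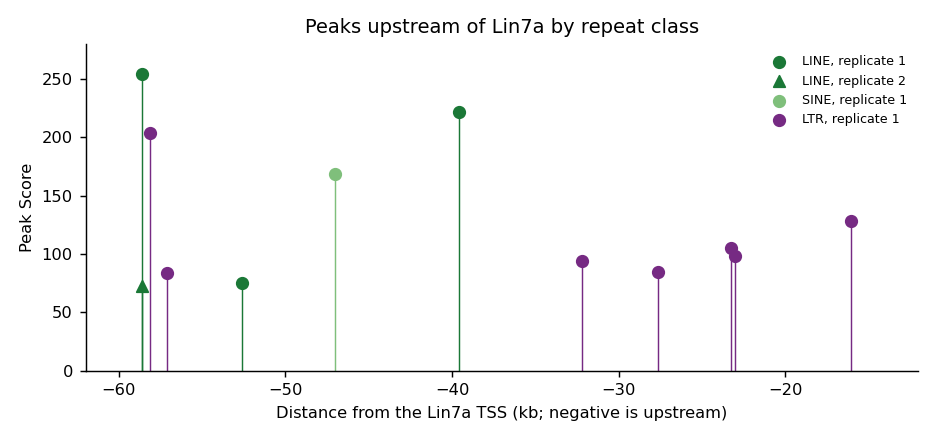
Peak Score (vertical axis) of the members nearest to Lin7a against their distance from its TSS in kb (horizontal axis, negative is upstream), coloured by repeat class, with circles for replicate 1 and a triangle for replicate 2. The 11 circles spread over 42.9 kb with scores of 75 to 254, and the triangle (73) stands under the highest circle.

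No-repeat regions in all 3 lists were near Ly6c2, a monocyte surface antigen (798, 243 and 329), in Sos2, a guanine nucleotide exchange factor for Ras (256, 96 and 89), and in Kctd16, an auxiliary subunit of GABA-B receptors (223, 96 and 149). In replicates 1 and 2 they were in Nup107, a nuclear pore protein (221 and 128), in Il1rapl1, a synaptic receptor of the interleukin-1 receptor family (136 and 95), and near Gm32141 (78 and 78). In replicate 1 and the U list they were near the complement receptor gene Cr2, in a CpG island (327 and 160), and near 2010315B03Rik (165 and 119). In all, 49 of 59 no-repeat members of replicate 1 overlapped no other list, and the highest of these scored 221, near 2810429I04Rik (named after its values were seen). Most peaks of that list overlapped none: 57 of all its 213 peaks did overlap (26.8%), against 16.9% of its no-repeat members. In the U list the highest no-repeat peaks after that of Ly6c2 were those near Tmem125 (201), which overlapped replicate 1, and Nsmce3 (169), which overlapped no other list.

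CpG islands held 16 no-repeat members, 15 of them in replicate 1 and 1 in the U list. Peaks that HOMER placed at a promoter-TSS are not members, so the rule itself limits where a member can lie near a TSS. Of the 15 in replicate 1, 11 lay within 1 kb of a TSS. These were all in intron 1, downstream of the start by 134 to 880 bp (median 324 bp). Their genes were Mdm2, the ubiquitin ligase of p53, Ezh2, the PRC2 methyltransferase, Numb, an inhibitor of Notch signalling, H3f3b, which encodes histone H3.3, the RNA-processing genes Hnrnpu, Tra2b and Lsm8, the helicase gene Ddx18, the acetyltransferase gene Nat10, the kinase anchor gene Akap10 and Sfi1, a centrosome protein gene. These were named after their values were seen, except Mdm2. Their scores were low, 74 at the median, 52 at the lowest and 237 at the highest, with ranks of 36 to 213 of 213. The highest, that of Mdm2, was the only one of the 11 to overlap another list, at a promoter-TSS peak of replicate 2. Promoter-TSS peaks of replicate 1, which are not members, overlapped another list in 3 of 43 cases (6.98%) and had a median score of 80, and those of replicate 2 overlapped in 4 of 9.

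Of 20 adipocyte genes listed, among them Pparg, Cebpa and Adipoq, 0 were the nearest gene of a member. Of 13 genes of the p53 and Par-4 pathway, 1 was: Mdm2, with 4 members. Of these, 3 were in replicate 1, the CpG island peak and 2 peaks in an intron of the neighbouring gene Cpm (scores 122 and 70), and 1 was the MTC copy in the U list, 6024 bp upstream, which overlapped no other list. The share of all genes that are the nearest gene of a member was not computed. The counts of 0 of 20 and 1 of 13 are therefore not read as a lack or an excess of peaks at listed genes.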

How the data were processed

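ChIP-Seq with a Par-4 antibody was performed on 3 samples of untreated 3T3-L1 cells. According to the submitters' processing notes and the file headers, the authors mapped reads to mm10 with Bowtie2, called peaks with MACS2 for each list separately and annotated them with HOMER. Neither their versions nor the MACS2 threshold was given in the sources used here. The deposited score of each peak is the authors' MACS2 value, a −log10 p-value or q-value multiplied by 10, without saying which. The positions and TSS distances were used as deposited. The lists give no read depth, so precision is given by exact binomial 95% intervals over peaks.

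Members and lists were chosen with earlier results of these data known. Classes with at least 5 members in a list were compared with no-repeat members by Fisher's exact test (two-sided), and p-values were adjusted by the Benjamini-Hochberg method. For score, width and distance, members above the median of all peaks of the list were counted. The peaks named were the 3 highest of each class in each list, shared regions outside satellite and rRNA copies, and members nearest to a listed gene. Satellite and rRNA regions beyond these, runs and CpG island genes were named after their values were seen. Entrez IDs matched the RefSeq table for 229 of 230 members, and the introns of all 80 intronic members were matched to a transcript. Promoter sequences came from RefSeq GRCm38.p6, and repeat sequences are not printed. The values of 1 single gene are not reported here. Alternatives covered the score, chromosome 10, neighbouring peaks, unplaced DNA, the overlap rule, the distance rule and each replicate left out; one without CpG islands was chosen after seeing the data. Overlap and classing were tested on simulated data. Computations used Python 3.11.15 with scipy 1.17.1, pandas 2.3.3 and numpy 2.4.6, and plots matplotlib 3.10.9.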

Additional observations from a re-analysis of the deposited data

How the results depend on the processing

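Of 81 alternative values of the main shares and counts, 70 kept within their limits (1 SD between lists for a share, 1.5 times for a count) and 11 did not. With peaks under the median score of each list dropped, the mean share over lists was 43.6% for satellite, 3.38% for LINE, 2.56% for SINE and 22.2% for no repeat, and the overlap comparisons past the threshold numbered 0 of 8 in place of 3 of 12. The score comparisons were not run with this filter, which fixes their outcome. Without chromosome 10 the LINE share was 4.26% and 3 of 9 width comparisons passed. Width comparisons past the threshold numbered 2 without unplaced DNA, 2 without CpG islands (chosen after seeing the data), and 4 with peaks within 10 kb counted once. The last setting kept the highest-scoring peak of each group of neighbours in a class, so it selects by score. With it, wide satellite members of replicate 1 went from 18 of 24 to 11 of 11, and no-repeat members from 27 of 59 to 23 of 51. The cause of these changes was not tested. With a replicate left out, 1 to 2 overlap comparisons passed, 1 when replicate 1 was left out and 2 when another list was. Of 264 single comparisons under alternatives, 234 kept direction and side of the threshold, 13 newly passed, 4 no longer passed and 13 turned direction, none of which passed as reported or under the alternative. In percentage points against no-repeat members, with the score filter those of replicate 2 became −18.2 (satellite overlap), −36.4 (satellite width) and 10 (rRNA distance). The LINE overlap of replicate 1 became −11.9 with a reciprocal overlap of 50%, and with a gap of 1000 bp the overlaps of that list became −1.51 (LINE), 6.27 (SINE) and −3.73 (simple repeats). With a replicate left out, the differences in overlap ranged from −7.27 to 6.36 (LTR, U list), −10.2 to 10.4 (LINE, replicate 1) and −11.9 to 9.83 (simple repeats, replicate 1). The others were 0.465 (simple-repeat width, replicate 1, without chromosome 10), −1.82 (LINE distance, U list, with a limit of 10 kb) and 0.952 (LINE width, U list, without CpG islands). Depth is unknown, and classes of 5 to 15 peaks leave wide intervals. No paired analysis was possible because there is a single group.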
